A study of Mus musculus with 12 samples.

Results

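Libraries of cell clones from the mouse Fallopian tube that carried a large share of counts on chemoreceptor genes were compared with the remaining libraries of the same series. Chemoreceptor genes are here the protein-coding genes with Olfr, Vmn1r, Vmn2r, Taar, Tas1r or Tas2r symbols, 1541 in all. A library was called high where these genes held more than 5% of its expected counts and low otherwise, so that the libraries were chosen by these counts, and 5 of 12 were high and 7 low. Because the groups were drawn from the counts themselves, every difference between them is given as a description of these libraries, without a test.

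All 12 libraries came from wild-type mice with MADM RG and GR alleles on a mixed background, 4 weeks old and untreated. MADM, mosaic analysis with double markers, marks a cell and the clone that descends from it in a fluorescent colour. Each of 6 mice gave 1 library of large clones and 1 of small clones from the distal tube, each a pool of 200 laser-dissected cells whose poly(A) RNA was amplified. No other genotype or treatment was part of the comparison, and the pooled cells of a library are not replicates. Libraries are named below by clone size and mouse, so that "large 1" is the library of large clones of mouse 1.

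The distal tube is lined by an epithelium of secretory cells, which release oviductal glycoproteins, and ciliated cells, which move the egg with beating axonemes. Chemoreceptors are G protein-coupled receptors of sensory cells. Olfr genes encode odorant receptors of the main olfactory epithelium, Vmn1r and Vmn2r genes encode pheromone receptors of the vomeronasal organ, and Taar and Tas genes encode trace amine and taste receptors. Processed pseudogenes are intronless copies of messenger RNAs inserted in the genome.

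Some 25-base stretches recur in the untranslated regions (UTRs) of many genes, and 3 are shown because the genes that carry them, chemoreceptors and others, are compared below. The whole stretch is the match, so no base is set in capitals.
sequence 1: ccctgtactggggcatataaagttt
sequence 2: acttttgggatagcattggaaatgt
sequence 3: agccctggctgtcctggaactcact
Sequence 1 was read from the 3′ UTR of an Olfr769 transcript (chromosome 10, transcript bases 3204 to 3228) and sequence 2 from the 3′ UTR of a Vmn1r227 transcript (chromosome 17, transcript bases 4098 to 4122), both in GENCODE M21. Sequence 3, the stretch found in the UTRs of the most genes, was read from a retained-intron transcript of Cdc45 (chromosome 16, transcript bases 718 to 742). Searched on both strands, sequence 1 occurred in transcripts of 119 of 35491 genes (0.335%), 56 of them chemoreceptors, sequence 2 in 102 genes (0.287%), 31 of them chemoreceptors, and sequence 3 in 922 genes (2.60%), 40 of them chemoreceptors.

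The high libraries were large 1, large 2, small 3, large 6 and small 6, with chemoreceptor shares of 10.6%, 8.13%, 7.75%, 10.9% and 10.3%. Among the 7 low libraries the lowest share was 0.831% (small 5), the median 2.22% and the highest 4.10% (small 1). The members nearest to the 5% limit were therefore small 3 at 7.75% and small 1 at 4.10%. Both libraries of mouse 6 were high, both libraries of mice 4 and 5 were low, and mice 1, 2 and 3 had 1 library in each group. Within those 3 mice the high library held 2.58, 2.45 and 4.46 times the chemoreceptor share of its low partner. Of clone size, a label that the grouping did not use, 3 large and 2 small libraries were high (two-sided Fisher's exact test against the low libraries, p = 1). Total expected counts were 3747079 to 4227129 in the high libraries and 3057979 to 4031151 in the low, and 14798 to 18889 against 12090 to 17092 genes had at least 1 count. Whether depth has a part in the differences below was not tested.

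Across all genes, 11975 passed the filter on low counts and held 98.1% of counts. A gene is called higher or lower here where the CPM (counts per 1000000 of the library total after TMM adjustment) of the 5 and the 7 libraries did not overlap and the fitted fold was at least 2. By that rule 945 genes (7.89%) were higher in the high libraries, 1056 (8.82%) were lower, and 2001 (16.7%) were either. The median log2 fold change over all tested genes was 0.18. The division between higher and lower moved with the scaling. With total counts alone 1374 genes were higher and 818 lower, and with scaling factors from genes without shared 25-mers 1838 were higher and 665 lower. Without mouse 1 the count of higher genes was 1431.

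**Figure D1:**
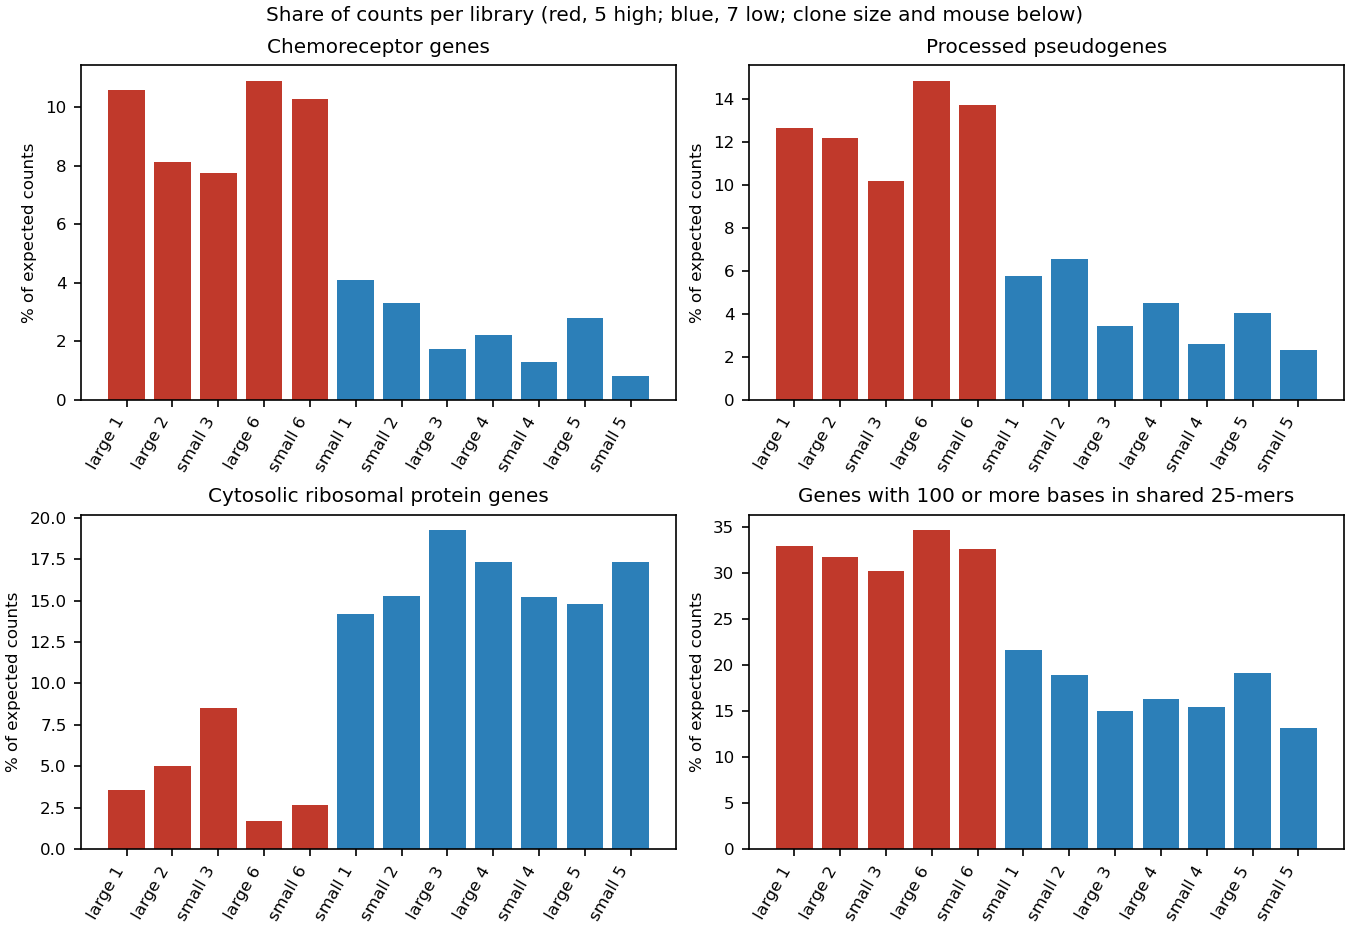
Share of expected counts, in percent, held by 4 gene groups in each library, with the 5 high libraries in red and the 7 low in blue and each bar 1 library. The red bars of chemoreceptors, which defined the groups, stand at 7.75% to 10.9%, and those of processed pseudogenes and of genes with shared 25-mers also lie above every blue bar, while those of ribosomal protein genes lie below.

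All 3 large chemoreceptor families were represented. Olfr genes held 7.57%, 5.35%, 5.30%, 7.41% and 7.23% of counts in large 1, large 2, small 3, large 6 and small 6, against 0.551% to 2.87% in the low libraries (median 1.41%). Vmn1r genes held 1.21% to 1.63% against 0.137% to 0.534%, and Vmn2r genes 1.24% to 1.85% against 0.143% to 0.705%. Taar and Tas genes, 15 and 38 in number, held next to none, and no member passed the filter. Of the 1541 chemoreceptors, 1092 had a count in some library and 465 passed the filter, 327 Olfr, 63 Vmn1r and 75 Vmn2r genes. Of these, 200 were called higher and 0 lower, 138 Olfr, 29 Vmn1r and 33 Vmn2r genes, with a median log2 fold change of 1.62 beside 0.18 over all tested genes. Since the grouping used these counts, and a gene could pass the filter through its level in the high libraries alone, nothing is read from that count. Single genes ranged from -2.12 in Olfr1033 to 8.14 in Olfr522, and 17 of the 465 were below 0. Between 727 and 833 chemoreceptor genes had at least 1 count in a high library and 534 to 690 in a low one.

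Olfr genes made up 65.8% to 71.5% of the chemoreceptor counts of the high libraries and 63.7% to 69.8% of those of the low. Vmn1r genes made up 12.9% to 15.8% and 13.0% to 17.7%, and Vmn2r genes 15.7% to 18.4% and 15.2% to 22.2%. All these ranges overlap. The 10 genes with the largest mean share in the high libraries, a choice that favours those libraries, held 33.3% to 37.3% of chemoreceptor counts in the high and 28.0% to 34.4% in the low libraries, and that range too overlaps.

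**Figure D2:**
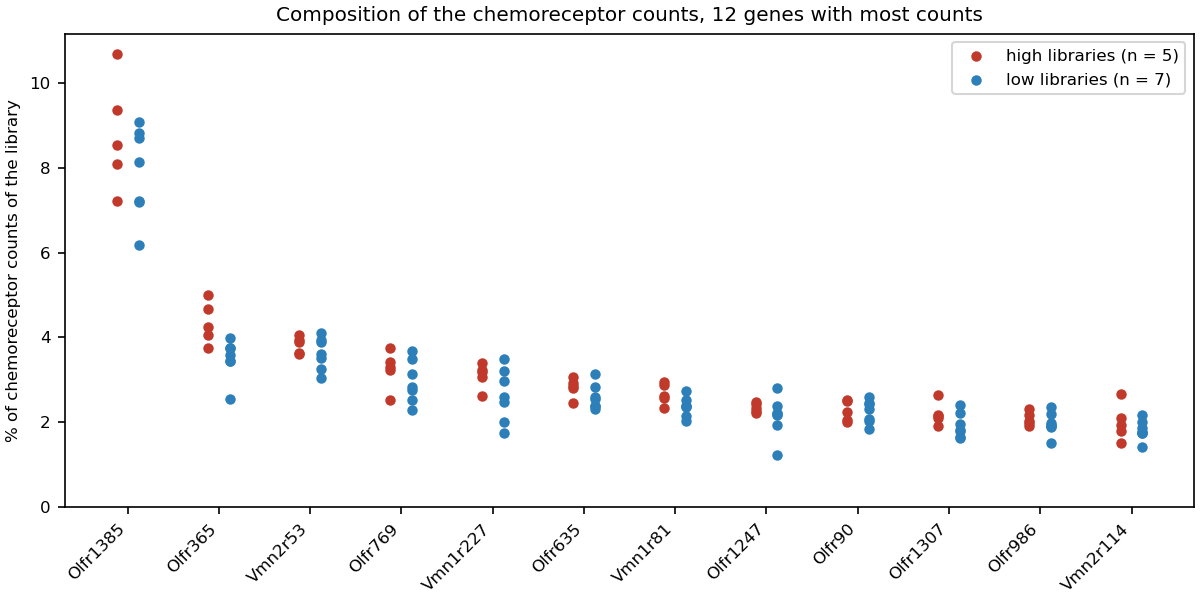
Percent of the chemoreceptor counts of a library held by each of the 12 genes with the largest mean share in the high libraries, 1 point per library, 5 high in red and 7 low in blue. For each of the 12 genes the red and blue ranges overlap, with Olfr1385 first at 6.18% to 10.7%.

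Olfr1385 (chromosome 11), an odorant receptor gene, had the most counts of the Olfr genes. Its CPM was 9039, 5388, 6358, 7490 and 8397 in large 1, large 2, small 3, large 6 and small 6, and 636 to 3653 (median 2292) in the low libraries. The groups did not overlap, with a log2 fold change of 1.79 (SE 0.40). Olfr365 (chromosome 2) had 2796 to 4467 CPM against 353 to 1509, and a log2 fold change of 2.04 (SE 0.36). Olfr769 (chromosome 10) had 1890 to 3158 against 235 to 1397, with 1.80 (SE 0.39). These levels are counts that were not divided by transcript length, so genes are not ranked against one another by them.

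Among the pheromone receptors, Vmn1r227 (chromosome 17) had 2206, 2379, 2415, 2968 and 2883 CPM in the high libraries and 358 to 868 (median 680) in the low, without overlap and with a log2 fold change of 2.03 (SE 0.29). Vmn1r81 and Vmn1r229 had log2 fold changes of 1.81 (SE 0.38) and 1.69 (SE 0.37). Vmn2r53 (chromosome 7), the Vmn2r gene with the most counts, had 2704 to 3546 CPM against 423 to 1584, and Vmn2r114 and Vmn2r115 had log2 fold changes of 1.79 (SE 0.40) and 1.77 (SE 0.37). The 9 named receptors thus had log2 fold changes between 1.69 and 2.04. RSEM divides a read that matches several genes among them, so the level of a receptor with a close copy is uncertain.

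Markers of the sensory cells in which these receptors work did not all go one way. Omp, the olfactory marker protein, had 0 counts in all 5 high libraries and up to 4.48 CPM in a low one. Trpc2, the channel of vomeronasal neurons, had 0 counts in all 12 libraries, and Cnga2, the olfactory cyclic nucleotide channel, had 2 counts in all over the high libraries and 0 over the low. Of 20 genes in the olfactory neuron list 7 passed the filter. Of these 0 were called higher and 1 lower, beside 7.89% higher and 8.82% lower among all tested genes. The summed CPM of the list was 141 to 332 against 68.8 to 294, ranges that overlap. The median log2 fold change of the 7 was 1.15, and 4 of them were positive. Ebf2, a transcription factor of olfactory neurons and other cells, had 22.4, 42.6, 62.0, 72.7 and 139 CPM in large 1, large 2, small 3, large 6 and small 6, against 0.922 to 25.3, with an overlap at large 1 and a log2 fold change of 3.11 (SE 0.82). Adcy3, the adenylyl cyclase of odorant signalling, had 0.38 to 20.2 CPM against 0 to 3.03, and Gnal, the G protein subunit of that pathway, had 1.49 to 11.7 against 1.27 to 42.4, and both overlap. The adhesion molecule Ncam1, which other cells use too, had 55.2 to 206 CPM against 1.70 to 133. Cngb1, of the same list, had 1.90 to 11.9 CPM against 0.425 to 71.0, which also overlap. In the vomeronasal and taste list 3 of 10 genes were tested and 0 called. That list held 0.0931% to 0.110% of counts against 0.0417% to 0.0876%, without overlap, but overlapped in summed CPM, at 756 to 1112 against 516 to 1007. Most of that sum was Gnai2, at 724 to 1103 CPM against 486 to 963. The part of such cells in the chemoreceptor counts was not tested. A sum of 0 counts over the high libraries allows up to 3.

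Processed pseudogenes held 12.7%, 12.2%, 10.2%, 14.8% and 13.8% of counts in large 1, large 2, small 3, large 6 and small 6, and 2.34% to 6.58% (median 4.06%) in the low libraries. The groups did not overlap. Of 686 tested, 111 (16.2%) were higher and 24 (3.50%) lower, beside 7.89% higher and 8.82% lower among all tested genes. Their median log2 fold change was 1.73, beside 0.18 over all tested genes. The 686 were those of 9641 that passed the filter. A pseudogene could pass it through its level in the high libraries alone, so nothing is read from the count of calls. Without the filter the median was 1.42, beside 0.70 over all genes. Gm13722, the pseudogene with the most counts, had 8276, 8182, 8397, 10493 and 10681 CPM against 1145 to 3495, a log2 fold change of 1.98 (SE 0.32). Gm47933 and Gm42785 had 1.84 (SE 0.41) and 1.95 (SE 0.35). Within mice 1, 2 and 3 the high library held 2.19, 1.85 and 2.98 times the pseudogene share of its partner. Reads of a pseudogene can match its parent gene, so the division between the pair is uncertain.

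Some other classes held a larger share of counts in the high libraries. Genes with a Zfp number as symbol, many of them KRAB zinc finger repressors, held 1.46% to 1.95% of counts against 0.642% to 1.03%, without overlap, and 22 of 237 tested (9.28%, near the 7.89% of all tested genes) were higher and 7 lower, with a median log2 fold change of 0.50. Transcribed unprocessed pseudogenes held 0.269% to 0.354% against 0.0468% to 0.147%. Protein-coding genes as a whole held 82.4% to 87.7% against 91.6% to 96.3%.

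A group of predicted genes, named after their values were seen, reached high levels. Gm10800 (chromosome 2) had 3948, 2228, 964, 7489 and 14475 CPM in the high libraries and 109 to 1203 (median 259) in the low, so that small 3 lay within the range of the low libraries. Gm10718 and Gm10719 had log2 fold changes of 3.52 (SE 0.79) and 3.54 (SE 0.78), small 3 again lay within the range of the low libraries at 373 and 333 CPM, and none of the 3 was called. Of Gm10718, 31.1% of the 25-base words also occurred in Gm10800. Gm21750 had 5001 to 7131 CPM against 475 to 2755, without overlap.

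Cytosolic ribosomal protein genes, which encode the protein part of the ribosome, were lower. They held 3.57%, 5.04%, 8.54%, 1.71% and 2.66% of counts in large 1, large 2, small 3, large 6 and small 6, against 14.2% to 19.2% (median 15.3%) in the low libraries. Of 80 tested, 60 were lower, beside 8.82% of all tested genes, and 0 higher, with a median log2 fold change of -2.94. The value of small 3 rested on 1 gene: Rpsa, the laminin receptor and ribosomal protein SA, had 53789 CPM there and 3235 to 8789 CPM in the other high libraries. Without Rpsa the share was 1.31% to 4.08% in the high and 9.91% to 14.4% in the low libraries. Rpl41, of the large subunit, had 2994, 5401, 2385, 1112 and 2238 CPM against 15949 to 26728, with a log2 fold change of -2.88 (SE 0.41). Rps15 and Rpl13a had -2.04 (SE 0.49) and -2.04 (SE 0.46), and Rplp1, a stalk protein, -2.90 (SE 0.39).

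Some genes of translation and respiration were also lower, read here against the 8.82% lower and 7.89% higher among all tested genes. Of 22 translation factors tested, 8 were lower and 0 higher, with a median log2 fold change of -2.07. Eef1a1, which brings aminoacyl-tRNA to the ribosome, had 244, 385, 36.8, 80.1 and 115 CPM against 925 to 2751, with a log2 fold change of -3.26 (SE 0.61). Of 27 nuclear genes of oxidative phosphorylation, 12 were lower and 0 higher, with a median of -3.05, and Cox4i1, a subunit of cytochrome oxidase, had -3.60 (SE 0.56). Of 18 other housekeeping genes, 7 were lower and 1 higher, and Ftl1, the ferritin light chain, had 24.5 to 248 CPM against 1606 to 3220. Of 68 mitochondrial ribosomal protein genes tested, 6 (8.82%, the share of all tested genes) were lower and 2 higher. The class held 0.597% to 0.780% of counts against 0.528% to 0.690%. Its median log2 fold change was nevertheless -1.80, beside 0.18 over all tested genes, and 23 of the 68 were positive. The 13 genes encoded in mitochondrial DNA held 0.00811% to 0.0703% against 0.0174% to 0.347%, and these ranges overlap. Of 11 tested, 1 was lower and 0 higher, with a median of -3.31, and 0 were positive.

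The summed levels of tube epithelium markers were lower in the high libraries, while fewer single markers were called. Beside 8.82% lower among all tested genes, of 11 secretory genes tested, 5 were lower and 0 higher, with a median log2 fold change of -3.33, of 27 ciliated cell genes 10 and 0, with -3.00, and of 10 general epithelial genes 4 and 0, with -2.25. The summed CPM of the secretory list was 1150, 1685, 1557, 640 and 800 in large 1, large 2, small 3, large 6 and small 6, against 3669 to 11794 (median 7087). That of the ciliated list was 549 to 1822 against 4080 to 12219, and that of the epithelial list 332 to 1534 against 4194 to 8276, with no overlap in any of the 3. A smaller number of cells of a type and less RNA per cell cannot be told apart in such pools. The direction of the median of each of these 3 lists was the same under the 4 other scalings.

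Krt18, an intermediate filament protein of simple epithelia, had 751, 1141, 1269, 205 and 602 CPM in the high libraries and 3014 to 6381 (median 3679) in the low, without overlap and with a log2 fold change of -2.48 (SE 0.44). Krt8, its partner, had -3.64 (SE 0.60). Clu, the secreted chaperone clusterin, had 253, 63.2, 59.1, 106 and 29.7 CPM against 710 to 1884, without overlap, and Ltf, lactoferrin, had -3.33 (SE 0.77). Tubb4b, a tubulin of cilia, had 108, 284, 186, 39.0 and 73.7 CPM against 743 to 3282, with -3.77 (SE 0.58), and Rsph1, of the radial spoke of the axoneme, had -2.80 (SE 0.61). Ovgp1, the oviductal glycoprotein, had 346 to 817 CPM against 563 to 8312, ranges that overlap. Foxj1, the regulator of motile cilia, and Epcam, an epithelial adhesion molecule, were low everywhere, at most 24.8 and 56.2 CPM, and overlapped. Pax8, of the secretory lineage, was 0 to 42.2 CPM against 0 to 54.6 CPM.

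**Figure D3:**
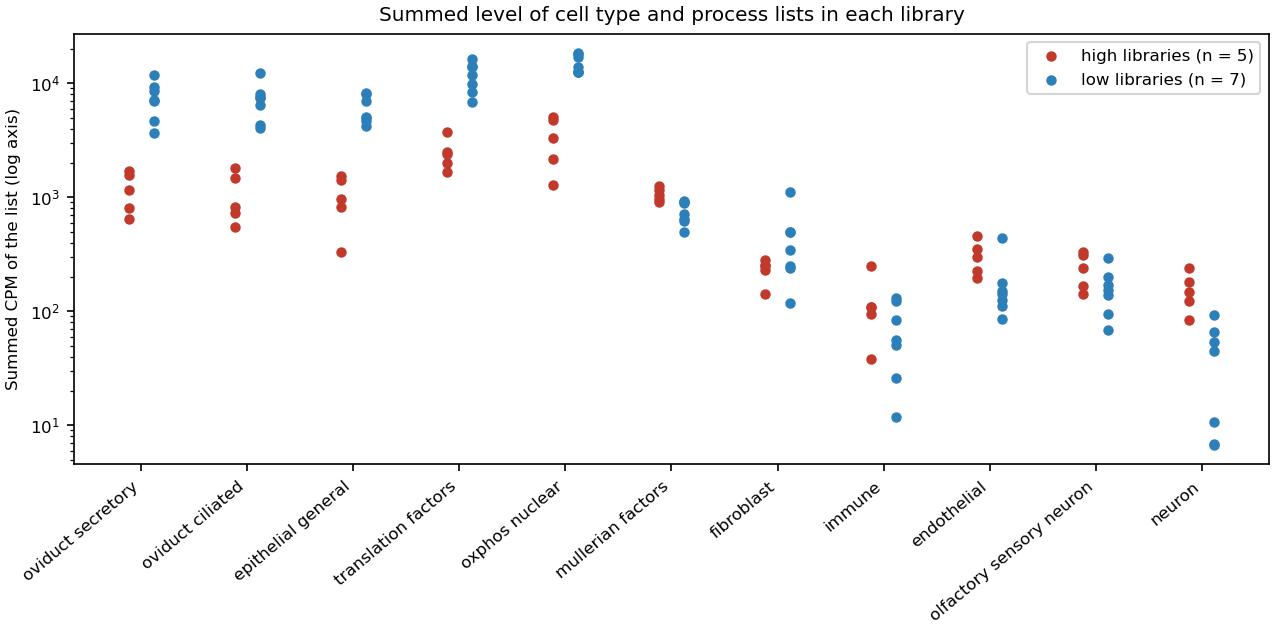
Summed CPM of 11 gene lists on a log axis, 1 point per library, with the 5 high libraries in red and the 7 low in blue. The points of the secretory, ciliated, epithelial, translation and oxidative phosphorylation lists separate, with the red points lower, and those of the other 6 lists overlap.

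Markers of other cell types overlapped between the groups in summed CPM. It was 142 to 280 against 119 to 1114 for the fibroblast list, 38.1 to 252 against 11.9 to 130 for the immune list and 197 to 461 against 85.6 to 443 for the endothelial list. The neuron list was at 83.3 to 239 against 6.76 to 92.0, overlapping in the lowest high library, but as a share of counts the list did not overlap, at 0.00907% to 0.0274% against 0.000544% to 0.00865%, and its 4 tested genes all had positive log2 fold changes, with a median of 2.35. No gene of these 4 lists was called. The median log2 fold change was -1.03 for the fibroblast list (3 of 9 tested positive), 1.00 for the immune list (3 of 5) and 0.75 for the endothelial list (5 of 6). Members of the immune list went both ways. Ptprc and Cd3e had 4.18 (SE 1.01) and 3.33 (SE 1.36), and C1qb and Cd74 had -2.08 (SE 1.26) and -4.11 (SE 1.52). Among the Mullerian factors 0 of 5 tested were called, and Wnt4 had 732 to 1163 CPM against 334 to 869. As a share of counts that list too did not overlap, at 0.110% to 0.137% against 0.0396% to 0.0955%. The smooth muscle list was at 18.1 to 205 against 123 to 508, and the red blood cell list at 34.5 to 2407 against 230 to 5667. No gene of the spermatid list passed the filter.

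The 10 protein-coding genes with the largest fitted fold changes were taken from the genes called higher, outside chemoreceptors and genes with only a clone name. Low levels in the low libraries follow from that choice. A gene could also pass the filter through the high libraries alone. Tcfl5, a basic helix-loop-helix factor of the germ line, had 105, 148, 164, 328 and 110 CPM in the high libraries, and 0 to 38.4 in the low, where 4 of 7 had 0. Trim66 had 67.0 to 293 against 0 to 12.05, Hsf5 15.5 to 328 against 0 to 12.6 and Plk2, a polo-like kinase, 12.4 to 220 against 0 to 5.10. Alg13, Tmem229a, Eml6, Uroc1, Acvr1 and Slco5a1 completed the 10. None of the 10 had 100 or more bases in shared 25-mers.

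In the other direction, Stub1, a ubiquitin ligase that works with chaperones, had 0 counts in all 5 high libraries and 9.77 to 322 CPM in the low, at least 873-fold higher there when 3 counts over the high libraries are taken as the limit. Rab5if had 0 counts against 0.977 to 70.1 CPM, at least 232-fold. Ahsa2, Zdhhc18 and Col6a1 had 1 count in all over the high libraries, Tagap1 had 2, Saraf and Tmem86a had 3, and Smdt1 and Por had 4. Their sums over the low libraries were 375 to 2338 counts.

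Called genes differed in measures of transcript structure. The longest transcript had a median length of 3857 bases for genes that were higher, 2354 for genes that were lower and 3464 for all tested genes. Median GC content was 43.3%, 53.5% and 48.6%, and the median longest run of A was 7, 5 and 6 bases. In the transcript used, 22.4%, 7.10% and 13.4% of genes had 1 exon. That was the transcript with the most bases in the shared words described below, which need not be the longest. For Pecam1 it had 2142 bases, 128 of them shared, and 1 exon. Of higher genes 35.2% had 100 or more shared bases, and of lower genes 5.59%. The part of this choice in the differences in GC content, run of A and exons was not tested. Tested chemoreceptors had a median length of 4779 bases and a GC content of 38.8%, and untested ones 2441 bases and 39.2%. Of the 945 higher genes 200 were chemoreceptors, whose counts defined the groups, so the values of the higher genes are in part those of the receptors. Values without the receptors were not computed.

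A further property, added after the data had been seen, was the number of transcript bases in 25-base words that occur in the UTRs of at least 20 protein-coding genes other than chemoreceptors. Genes with 100 or more such bases, 2211 of 35491 (6.23%), held 32.9%, 31.7%, 30.2%, 34.6% and 32.6% of counts in the high libraries and 13.2% to 21.6% (median 16.3%) in the low, without overlap. Of 1851 tested, 333 were higher and 59 lower, with a median log2 fold change of 0.86, beside 7.89% higher and 8.82% lower among all tested genes. The 1851 include 75 chemoreceptors, whose counts defined the groups, 39 of them higher. Among 1735 other protein-coding genes 278 were higher and 59 lower, with a median of 0.81. Genes with no such base held 42.8% to 46.4% against 57.3% to 68.5%, and of 7770 tested 338 were higher and 869 lower, with a median of -0.50, which turned to 0.19 with scaling factors from genes without shared 25-mers. In transcripts of 1000 to 2000 bases of protein-coding genes other than chemoreceptors the median was -2.27 without and 0.89 with 100 or more shared bases, from 2000 to 4000 bases -1.10 and 0.81, and from 4000 to 8000 bases -0.16 and 0.77. RSEM divides reads of a shared stretch among its carriers, receptors included. The shares, calls and medians of genes with shared bases are therefore not free of the grouping, also without receptors, and only describe these libraries.

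Among the chemoreceptors themselves the median log2 fold change was 1.68 for the 210 tested receptors without a shared base, 1.66 for the 180 with fewer than 100 and 1.41 for the 75 with 100 or more. In the same order 31.4%, 52.8% and 52.0% were called higher, beside 7.89% of all tested genes. The tested receptors were 210 of 1214, 180 of 242 and 75 of 84. Receptor counts defined the groups, and a receptor could pass the filter through the high libraries alone, so nothing is read from these values. The 84 receptors with 100 or more shared bases held 23.8% to 27.0% of chemoreceptor counts in the 12 libraries. That share depended on how shared words were defined. Over all definitions computed, the mean over the 12 libraries ran from 9.42%, with words in at least 50 genes, to 93.0%, with words in at least 10 genes and any shared base counted. With words from the UTRs of all protein-coding genes, chemoreceptors included, which was the version computed first, it was 84.4% at 100 bases. No one of these values is preferred here.

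Sequences 1 and 2 were picked because named receptors and pseudogenes hold them, and many of their carriers are chemoreceptors, whose counts defined the groups, so nothing is read from the counts of carriers. Leaving chemoreceptors out, 31 of 57 tested carriers of sequence 1 were higher and 0 lower, and 28 of 60 of sequence 2 were higher and 3 lower. Of sequence 3, 144 of 866 were higher and 27 lower. Among all tested genes 7.89% were higher and 8.82% lower. Reads of a shared stretch can match receptors too, and RSEM divides such reads among the genes. Leaving receptors out therefore does not free these counts from the grouping, and nothing is read from them either. Sequence 1 lay in Olfr1385, Olfr365, Olfr769 and Vmn1r229, sequence 2 in Vmn1r227 and Gm13722. Vmn2r53, Gm47933 and Gm42785 had none of the shared words.

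**Figure D4:**
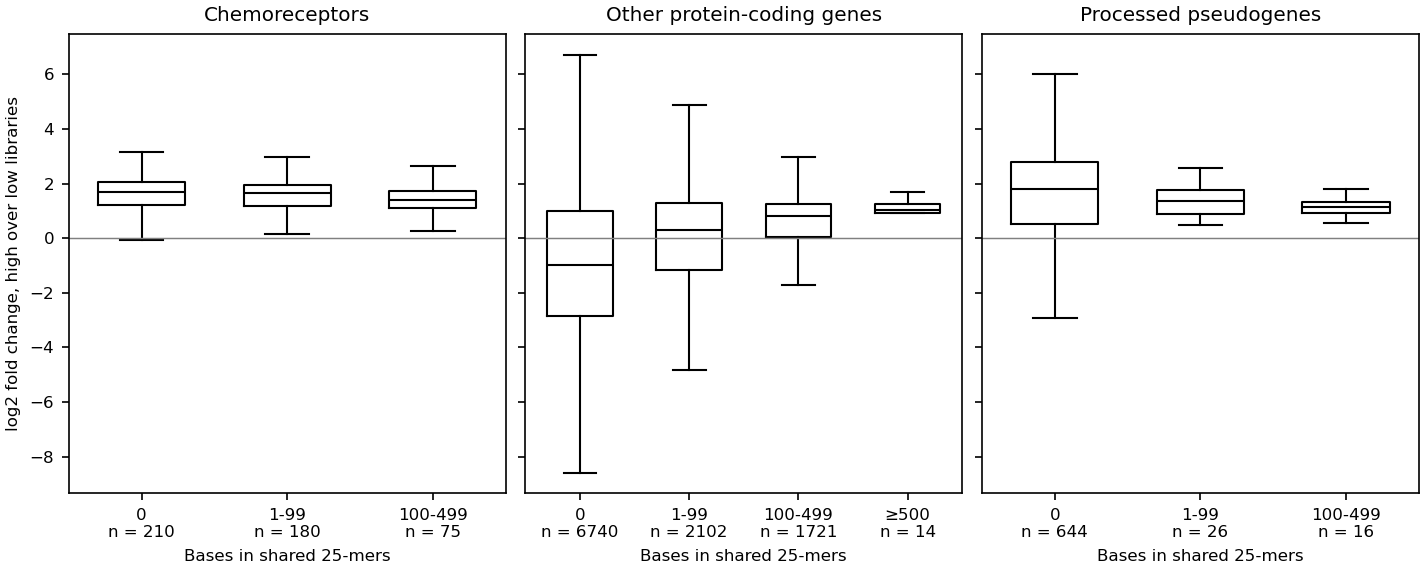
Log2 fold change of high over low libraries for tested genes, by the number of transcript bases in shared 25-base words, with the box spanning the quartiles, the line at the median and whiskers to the farthest gene that is no outlier by the usual box plot rule (outliers are not drawn, and bins under 5 genes are left out). Among other protein-coding genes the medians lie at -0.98 without shared bases and 0.81 at 100 or more (1735 genes over both upper bins). Those of chemoreceptors lie between 1.41 and 1.68, but receptor counts defined the groups and nothing is read from them.

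Clone size, the comparison of the labels, was tested with the library group as a term. Of 10848 genes, 0 (0%) had an adjusted p under 0.05 in the quasi-likelihood test of edgeR, with a lowest adjusted p of 0.588 and 447 genes at an unadjusted p under 0.05. DESeq2 called 36 genes, and edgeR without a filter on low counts 18. The interaction, which asks whether the difference between large and small clones itself differs between high and low libraries, gave 0 genes (0%), with a lowest adjusted p of 0.68 and 744 genes at an unadjusted p under 0.05. DESeq2 called 63 genes for it and edgeR without the filter 144. On data simulated from these libraries, for the 11975 genes of the filter by library group rather than the 10848 tested here, the test of clone size called 42 of 88 genes changed 16-fold and 0 of 92 changed 2-fold. A 2-fold difference was thus below what the test called in that simulation.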

How the data were processed

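RNA was measured in 12 libraries, and the values are expected counts from RSEM for 35509 genes, per the file headers, in 1 deposited table. RSEM, Bowtie2 and GRCm38 are named in the submitters' processing notes, without versions. The table's gene coordinates matched GENCODE M21 of GRCm38 in chromosome and start for 3.00% of 35491 genes, so only chromosomes are given. Limits from 3 counts cover counting error only, since the cDNA was amplified and carries no molecular identifiers.

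Expected counts were rounded and fitted with edgeR 4.0.16 in R 4.3.3 (TMM, filterByExpr by library group, terms for library group and clone size). The limit of 5% and the filter use the grouping itself, so no p-value is given for it (a count of genes by adjusted p stands in the closing section as another calling rule). Clone size and its interaction with the group were tested by quasi-likelihood with Benjamini-Hochberg adjustment at 0.05, after a filter by clone size. DESeq2 1.42.0 was an alternative. The fit was tested on simulated data. Both libraries of a number are from 1 mouse, per the labels. The correlations of their deviations from the means of their clone size were -0.0046, -0.0036, -0.364, 0.272, 0.511 and 0.622 for mice 1 to 6. The difference between high and low libraries was not removed from these deviations. Mice 1, 2 and 3 had 1 library in each group, and the other mice had both in the same group, so pairing by mouse cannot be told apart from the grouping here.

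The members and gene lists were chosen with earlier results of these data known. Named genes were, by rule, the 3 receptors of the Olfr, Vmn1r and Vmn2r families and the 3 processed pseudogenes with the highest mean CPM in the high libraries, the 5 ribosomal protein genes with the highest mean CPM, up to 4 genes per list, the 10 protein-coding genes with the largest fold change in each direction among called genes with at least 20 CPM, and 10 fixed markers. The text gives the main ones.

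Shared 25-base words were not among the planned properties. They were first computed from the UTRs of all protein-coding genes. After those values were seen, chemoreceptors were left out of the source genes, since tandem receptor families could define their own words, and the minimum of 20 genes and the limit of 100 bases were varied. All versions are reported. Words had at least 8 distinct trinucleotides. Transcripts came from GENCODE M21, matched by gene identifier. Figures were drawn with matplotlib 3.10.9.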

Additional observations from a re-analysis of the deposited data

Results flagged for a closer look

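In 126 groups of libraries (each measure in the 5 high and in the 7 low), 21 had 1 library far from the others. The limits used are meant to flag about 1 in 20 by chance, or 6.3. A gene near 0 counts can pass them through 1 count, and some genes were named for large fold changes. The 21 are therefore not weighed against the 6.3. Among the high libraries, Rpsa stood at 53789 CPM in small 3 against at most 8789 in the others, mitochondrial genes at 0.0703% of counts in large 2, Tcfl5 at 328 CPM in large 6, and Alg13 at 135 and Eml6 at 206 CPM in small 3. Several genes that were lower in the high libraries stood apart through 1 to 3 counts in 1 library: Ahsa2 and Zdhhc18 at 0.19 CPM in large 6, Por at 0.727 and Col6a1 at 0.242 CPM in large 2, and Tmem86a at 0.639 CPM in large 1.

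Among the low libraries, small 5 stood apart in its total of 4031151 counts, in Tmem229a at 16.9 CPM and in Saraf at 329 CPM. Tcfl5 was at 38.4 CPM and Adcy3 at 3.03 CPM in small 2, and Alg13 at 4.16 and Slco5a1 at 5.12 CPM in small 1. Stub1 was at 322 CPM in large 3. In large 4, Ahsa2 was at 165, Smdt1 at 299.8 and Col6a1 at 112 CPM.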

How the results depend on the processing

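Scaling factors from genes without shared 25-base words, an alternative chosen after seeing the data, moved most values: 1838 genes were higher and 665 lower (73.4% higher, against 47.2% in the reported fit), and the median log2 fold change was 0.86 over all genes, 2.24 for chemoreceptors, 2.37 for processed pseudogenes, -2.21 for ribosomal proteins, 1.51 for genes with 100 or more shared bases and 0.19, a reversal, for genes with none. Total counts alone gave 62.7% higher among called genes, with medians of 0.54 over all genes and 1.20 for genes with shared bases, and factors without chemoreceptors and pseudogenes gave 1.05 for the latter. Without a filter on low counts the median was 0.70 over all genes and 0.62, also reversed, for genes with no shared base, and 18 genes were called for clone size and 144 for the interaction. DESeq2 called 36 and 63. An adjusted p under 0.05 in edgeR, used only as another calling rule and not as a test because the groups came from the same counts, marked 1201 higher and 2086 lower genes. As a share of protein-coding counts the chemoreceptor difference was 8.79 percentage points, against 7.21 of all counts.

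The definition of shared words moved 2 values. The difference in share of counts between high and low libraries was 15.3 percentage points as reported and 18.4 with any shared base. It was 27.7 and 24.1 (100 bases, any base) with words from all protein-coding genes, 26.5 and 24.2 with words in at least 10 genes, and 11.96 and 12.3 with words in at least 50. The percent of chemoreceptor counts in such genes was 25.3 as reported and 76.8 with any base, and in the same order 84.4 and 92.3, 82.3 and 93.0, and 9.42 and 30.9. The cause of these changes was not tested.

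With each mouse left out in turn, 897 to 1431 genes were higher and 1115 to 1514 lower. The medians were 0.12 to 0.21 over all genes, 1.43 to 1.89 for chemoreceptors, 1.60 to 1.97 for pseudogenes, -3.07 to -2.58 for ribosomal proteins, 0.67 to 1.02 with 100 or more shared bases and -0.59 to -0.31 with none. Clone size and the interaction stayed at 0 genes. With mouse as a replicate block, 798 genes were higher and 1045 lower, the chemoreceptor median was 1.27 and the ribosomal protein median -2.50, and no call on clone size or the interaction changed. Of 1800 values of single named genes under alternatives, 59 moved by more than the spread between libraries, and none reversed. At these totals a count of 0 allows 0.71 to 0.98 CPM per library.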
